A study of Homo sapiens with 7 samples.

Results

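The KRAB zinc finger clusters of human chromosome 19 were examined as 2 windows of the hg19 build, one of 4.6 Mb on the short arm that runs up to the centromere (chr19:19800000-24400000, the proximal window) and one of 4.7 Mb on the long arm (chr19:52300000-57000000, the distal window). Every peak of the 7 deposited lists whose midpoint fell in a window was taken. This gave 513 peaks of 148917 in all lists. They were compared with the 2133 peaks on the remaining 43.6 Mb of chromosome 19, which leaves out chr19:22500000-30500000 near the centromere. The peaks were taken by position and not by a measured value, though the windows were chosen with earlier results of these data known.

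KRAB zinc finger proteins are a large family of DNA-binding repressors whose genes arose by tandem duplication. Their KRAB domain recruits the corepressor TRIM28, and many of them bind transposable elements. The gene clusters are rich in near-identical copies and repeats, and in many cell types the 3' ends of these genes carry H3K9me3. Of the 517 protein-coding genes with a ZNF symbol in RefSeq (GRCh38.p14), 250 (48.4%) are on chromosome 19. The distal window is not made of zinc finger genes alone. In that gene order 40 of the 50 genes from FPR1 to ZNF331 have a ZNF symbol, and 72 genes without one follow up to ZNF628, among them 19 of the LILR, LAIR and KIR families, which encode receptors of leukocytes. Around ZNF91, with 10 genes taken on each side, 15 of the 21 genes from ZNF257 to C19orf12 have a ZNF symbol. That count follows gene order and was not limited to the proximal window. The peaks themselves were not assigned to genes, because the files are in hg19.

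Chromatin of HT1080, a human fibrosarcoma cell line, was immunoprecipitated after transfection with a non-targeting siRNA (siControl) or an siRNA against VRK1 (siVRK1), a nuclear kinase. Antibodies against H2A phosphorylated at T120 (pT120) and H2A ubiquitylated at K119 (ubK119, the mark that Polycomb complexes set) were used under both siRNAs, the VRK1 antibody under siControl only, and input DNA was sequenced under both. There was 1 library per condition, so nothing below has a replicate check, no p-value is given, and each comparison is of libraries and not of conditions. The intervals are exact 95% intervals and cover counting error only.

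The libraries held 20687408 to 40442635 reads, and the lowest peak height differed by list, from 12 to 18 reads. Height is the authors' highest number of extended reads within a peak. Of the window peaks, pT120 gave 31 under siControl and 63 under siVRK1, VRK1 gave 95, ubK119 gave 125 and 47, and the inputs gave 48 and 104. These were between 0.148% (siVRK1 pT120) and 0.542% (VRK1) of the peaks of each list. Lists called at different heights and depths are not comparable in number, so each window was compared with the rest of chromosome 19 within its own list.

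The 2 windows differed in opposite directions. The distal window was peak-rich in both inputs and in 4 of the 5 antibody lists, siVRK1 ubK119 being the exception. The proximal window was peak-poor in both inputs, for VRK1 and, with the lowest ratios, for ubK119, while the pT120 intervals held 1. With both windows together these differences partly cancelled. The ratio of peaks per Mb to the rest was then 1.47 (0.948 to 2.22) for siControl pT120, 1.83 (1.35 to 2.47) for siVRK1 pT120, 1.03 (0.813 to 1.28) for VRK1, 1.23 (1.01 to 1.51) for siControl ubK119, 0.650 (0.469 to 0.884) for siVRK1 ubK119, 1.38 (0.979 to 1.92) for the siControl input and 1.06 (0.845 to 1.31) for the siVRK1 input. The windows are therefore described separately.

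In the proximal window ubK119 gave 3 peaks under each siRNA, against 475 and 339 in the rest of the chromosome. The density was 0.0599 times that of the rest under siControl (0.0123 to 0.176) and 0.0839 times under siVRK1 (0.0172 to 0.247). The other lists were less depleted. VRK1 had 10 peaks and a ratio of 0.218 (0.104 to 0.406). The siControl input had 7 peaks and a ratio of 0.407 (0.161 to 0.858), and the siVRK1 input had 16 peaks and a ratio of 0.328 (0.186 to 0.539). Low peak density in the proximal window was thus also measured in DNA that was not immunoprecipitated. For pT120 the interval held 1 under both siRNAs, with 5 peaks and 0.479 (0.152 to 1.16) under siControl and 16 peaks and 0.942 (0.526 to 1.58) under siVRK1.

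Set against the input of the same siRNA, the proximal depletion was larger for ubK119. Its density ratio was 0.147 times that of the input under siControl (0.0243 to 0.656) and 0.256 times under siVRK1 (0.0474 to 0.904). The siVRK1 pT120 ratio was 2.87 times that of its input (1.31 to 6.28). The values for siControl pT120 (1.18, 0.286 to 4.44) and VRK1 (0.537, 0.181 to 1.69) did not differ from the input beyond counting error. With the proximal window ended at the stretch near the centromere, the ratios to the rest were 0.495 (0.159 to 1.18, siControl input) and 0.315 (0.143 to 0.603, siVRK1 input). Over input, ubK119 was then at 0.0686 (0.00145 to 0.623) under siControl. The intervals of siVRK1 ubK119 (0.151, 0.00344 to 1.10) and siVRK1 pT120 (2.87, 0.988 to 8.30) then held 1. The proximal ratios of 6 of the 7 lists moved with the height minimum. With 18 reads in every list the ratio for siControl ubK119 was 0.356 (0.0718 to 1.08), and for VRK1 and the siVRK1 input it was 0.972 (0.252 to 2.70) in both. For pT120 it was 2.11 (0.221 to 10.2) under siControl and 4.06 (0.678 to 17.8) under siVRK1, while siVRK1 ubK119, whose list starts at that height, stayed at 0.0839.

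In the distal window the ratio to the rest was 2.44 for siControl pT120 (26 peaks, 1.52 to 3.78) and 2.71 for siVRK1 pT120 (47 peaks, 1.91 to 3.77). It was 1.82 for VRK1 (85 peaks, 1.42 to 2.30) and 2.38 for siControl ubK119 (122 peaks, 1.94 to 2.91). The inputs had 41 peaks with a ratio of 2.33 (1.62 to 3.30) under siControl and 88 peaks with a ratio of 1.77 (1.39 to 2.22) under siVRK1. A distal excess was thus present in input DNA too. Only siVRK1 ubK119, with 44 peaks and 1.20 (0.859 to 1.65), had an interval that held 1. Divided by the ratio of its own input, the distal excess was 1.04 (0.575 to 1.87) for siControl pT120, 0.779 (0.507 to 1.21) for VRK1, 1.02 (0.678 to 1.56) for siControl ubK119 and 0.681 (0.451 to 1.02) for siVRK1 ubK119. For siVRK1 pT120 it was 1.53 (1.01 to 2.32). With 18 reads in every list no distal pT120 peak was left, and the distal ratio was 2.67 (1.60 to 4.29) for siControl ubK119 and unchanged for siVRK1 ubK119.

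**Figure D1:**
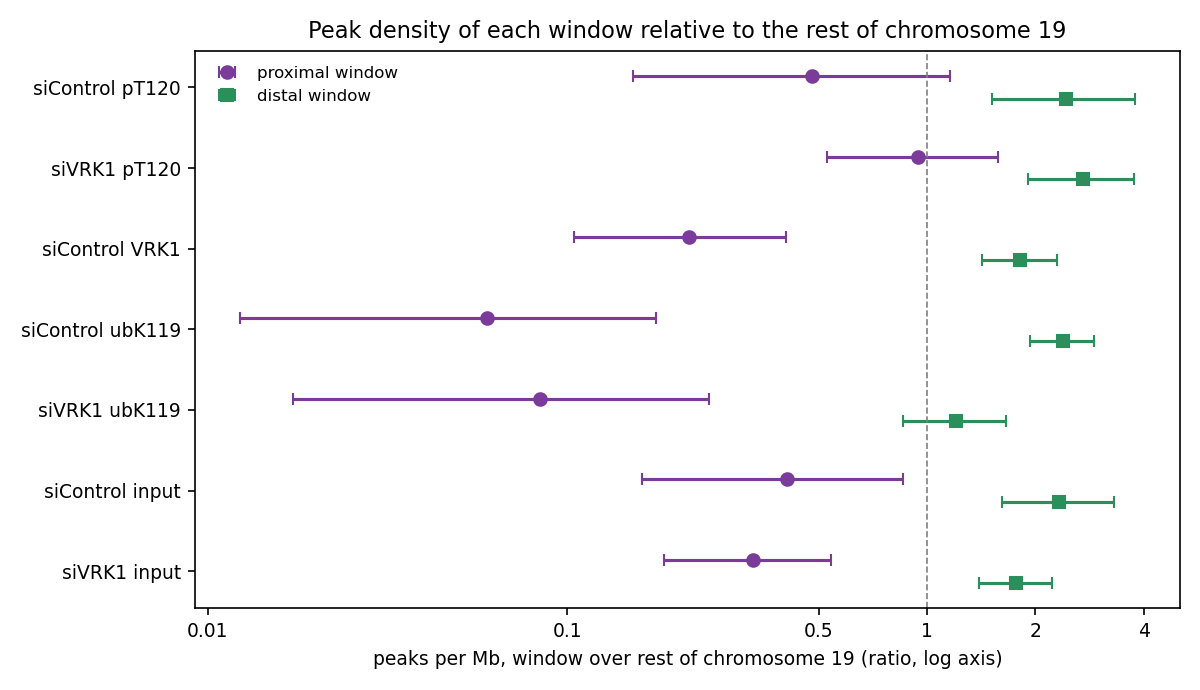
Peaks per Mb in the proximal window (circles) and distal window (squares) over peaks per Mb in the rest of chromosome 19, by library, on a log axis with exact 95% intervals of counting error. The 7 distal values lie between 1.20 and 2.71, inputs included, and the 7 proximal values between 0.0599 and 0.942, with both ubK119 libraries lowest.

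Taking out peaks that overlap a peak of either input moved the proximal ratios more than the distal ones. The distal window then held 23 siControl pT120 peaks (2.51, 1.51 to 4.02), 47 siVRK1 pT120 peaks (2.93, 2.06 to 4.09), 67 VRK1 peaks (1.73, 1.31 to 2.25), 97.5% of the siControl ubK119 peaks (2.45, 1.98 to 3.00) and 34 siVRK1 ubK119 peaks (1.04, 0.706 to 1.48). Over both windows these ratios were 1.38 (0.846 to 2.18), 1.86 (1.35 to 2.53), 0.964 (0.740 to 1.24), 1.25 (1.01 to 1.53) and 0.540 (0.369 to 0.768), in the same order. None of the 47 distal siVRK1 pT120 peaks overlapped an input peak, which for each input still allows a share of up to 7.55%. In the rest 149 of 161 peaks of this list (92.5%) also overlapped none. In the proximal window 1 ubK119 peak remained in each list, with ratios of 0.0210 (0.000531 to 0.118) under siControl and 0.0312 (0.000787 to 0.175) under siVRK1. The 2 siControl pT120 peaks left there gave 0.223 (0.0266 to 0.831), an interval that no longer held 1, and siVRK1 pT120 (12 peaks) was at 0.763 (0.386 to 1.37). The stretch taken for comparison also mattered. Against the rest of the long arm alone, where siControl ubK119 had 14.4 peaks per Mb against 10.9 in the whole rest, its distal ratio was 1.81 (1.46 to 2.23) and its ratio over both windows was 0.936 (0.757 to 1.15). The siVRK1 pT120 ratio over both windows was then 1.35 (0.978 to 1.85), and 1.38 (0.987 to 1.91) outside input peaks, so that its interval held 1. With the proximal window ended at the stretch near the centromere the siVRK1 ubK119 ratio over both windows was 0.782 (0.560 to 1.07).

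The distal window was not uniform for ubK119. Its first 2 Mb held 3 of the 122 siControl ubK119 peaks and 1 of the 44 siVRK1 ubK119 peaks, and its last 2.7 Mb held all the others. This boundary was placed after the values along the window had been seen. The density relative to the rest of the chromosome was 0.138 (0.0283 to 0.405) and 0.0643 (0.00162 to 0.361) in the first section, and 4.05 (3.28 to 4.96) and 2.05 (1.46 to 2.82) in the second. The inputs were also lower in the first section than in the second, but by less. They held 12 peaks under siControl (1.61, 0.813 to 2.88) and 18 under siVRK1 (0.850, 0.499 to 1.36) there, so that ubK119 was at 0.0858 (0.0154 to 0.325) and 0.0757 (0.00181 to 0.485) of the input ratio. Of these input peaks, 9 under siControl and 12 under siVRK1 lay in the first 0.5 Mb. The comparison with input is therefore not even along the 2 Mb. These ubK119 ratios overlap, within their intervals, those of the proximal window.

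The other antibody lists were not all alike. VRK1 had 17 peaks in the first section (0.854, 0.493 to 1.38) and 68 in the second (2.53, 1.93 to 3.27), at 0.532 (0.234 to 1.25) and 0.881 (0.540 to 1.47) of the ratios of its input. siControl pT120 was, like ubK119, lower in the first section, with 2 and 24 peaks and ratios of 0.440 (0.0526 to 1.63) and 3.92 (2.40 to 6.17). These were 0.274 (0.0293 to 1.28) and 1.36 (0.715 to 2.58) of the ratios of its input. siVRK1 pT120 was spread over both sections, with 19 peaks (2.57, 1.51 to 4.15) and 28 peaks (2.81, 1.81 to 4.21). In the first section its ratio was 3.03 times that of its input (1.46 to 6.28). Of its 19 peaks there, 10 lay in the first 0.5 Mb, where 12 of the 18 siVRK1 input peaks also lay.

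In steps of 0.5 Mb, siControl ubK119 peaks numbered 1, 0, 0, 2, 10, 55, 22, 17, 14 and 1 along the distal window. The densest step, chr19:54800000-55300000, held 55 peaks, and 1 of the 85 full steps in the rest of the chromosome held more (59). That rest had a median of 3 peaks per step for this list. The same step held 12 siVRK1 ubK119 peaks, 3 siControl pT120 peaks, 10 siVRK1 pT120 peaks, 7 VRK1 peaks, 4 siControl input peaks and 7 siVRK1 input peaks. The siVRK1 ubK119 list was highest one step earlier, with 14 peaks, and 2 of the 85 steps of the rest held more. VRK1 and the siVRK1 input both peaked at chr19:55800000-56300000, with 22 and 20 peaks. For VRK1 none of the 85 steps of the rest held more. ubK119 was not low on both sides of the window: the step just before it held 31 siControl and 16 siVRK1 ubK119 peaks, and the step just after it held 1 of each.

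**Figure D2:**
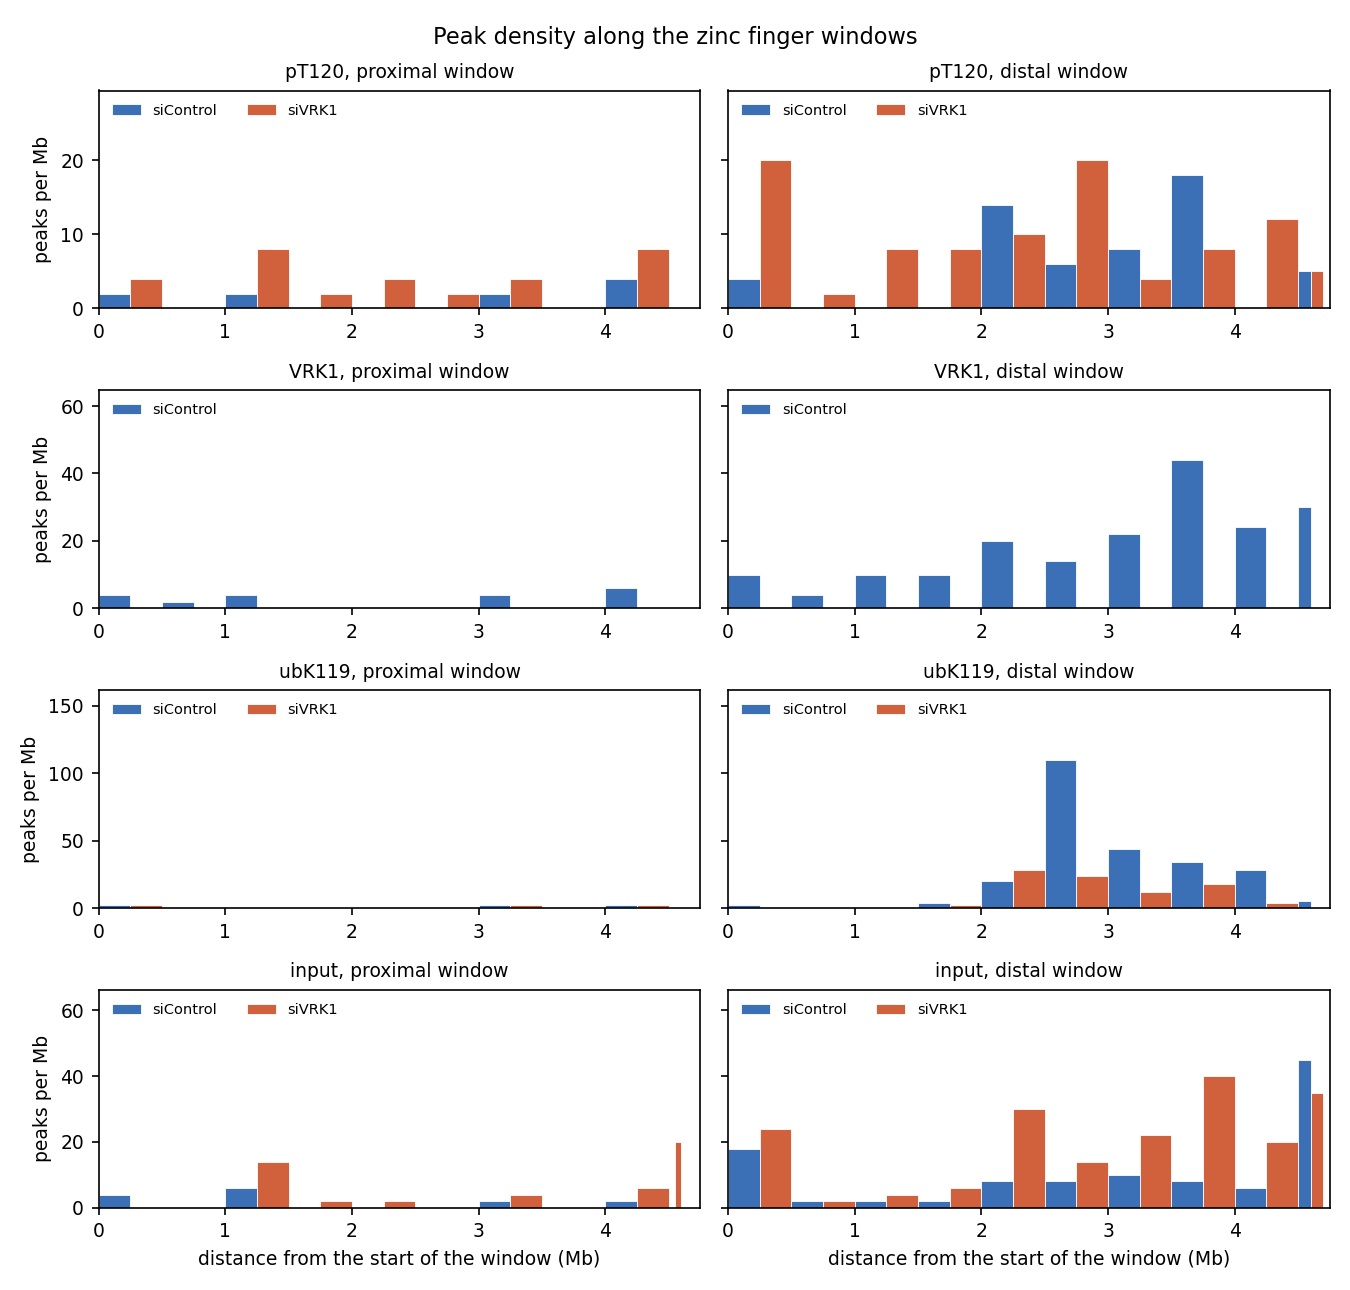
Peaks per Mb in steps of 0.5 Mb (the last step of each window is shorter) against the distance in Mb from the start of the proximal window (left) and distal window (right), with 1 row per antibody or input and its own vertical scale. Blue bars are siControl and orange bars siVRK1. ubK119 peaks are nearly absent from the proximal window and from the first 2 Mb of the distal window. Input peaks are present in both, and in the first 2 Mb of the distal window most of them lie in the first step.

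Most peaks in the windows were low and narrow. Distal median heights were 12 to 19 reads across the lists, as in the rest of the chromosome (12 to 19), and distal median lengths were 201.5 to 243 bp against 205 to 240 bp. The highest distal peaks reached 15 to 28 reads by list, against 33 to 72 reads in the rest. The rest is longer and held more peaks in every list, so these highest values are not directly comparable. In the proximal window the highest peaks reached 28 to 66 reads, and these stood in a few regions that nearly all lists shared. For 159 of the 513 peaks (31.0%) the deposited read count was below the height.

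The lists mostly held different places. Overlapping peaks of all lists merged into 442 regions, of which 398 (90.0%, 86.9% to 92.7%) were called in a single library. The share in the rest of chromosome 19 was close to this, with 1690 of 1857 regions (91.0%, 89.6% to 92.3%). In the distal window 363 of 402 regions came from 1 library and none from 5 or more. In the proximal window 35 of 40 regions came from 1 library, while 1 region each was called in 4, 5, 6 and 7 libraries. Of the 1857 regions in the rest, 7, 6, 1 and 6 were called in 4, 5, 6 and 7 libraries.

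Distal peaks of the same antibody under the 2 siRNAs rarely met. Of the 122 siControl ubK119 peaks 3 (2.46%, 0.510% to 7.02%) overlapped one of the 44 siVRK1 ubK119 peaks (3 of 44, 6.82%, 1.43% to 18.7%). In the rest of the chromosome this held for 44 of 475 (9.26%, 6.81% to 12.2%). No siControl pT120 peak of 26 overlapped a siVRK1 pT120 peak, against 8 of 99 in the rest (8.08%, 3.55% to 15.3%), and a count of 0 of 26 still allows a share of up to 13.2%. VRK1 peaks met siControl pT120 in 1 of 85 cases (1.18%, 0.0298% to 6.38%) and siControl ubK119 also in 1 of 85. In the rest the numbers were 22 of 434 (5.07%, 3.20% to 7.57%) and 24 of 434 (5.53%, 3.57% to 8.12%). The VRK1 list met the siVRK1 input most often, in 16 of 85 distal cases (18.8%, 11.2% to 28.8%). The share in the rest was near this, with 64 of 434 (14.7%, 11.5% to 18.4%). In the proximal window overlap was frequent among few peaks. VRK1 peaks met siControl pT120 in 4 of 10 cases and siControl ubK119 in 3 of 10, siControl pT120 peaks met siVRK1 pT120 in 4 of 5 cases and siControl ubK119 in 3 of 5, and all 3 siControl ubK119 peaks met a siVRK1 ubK119 peak. Over both windows the shares were 5.26% (1.73% to 11.9%) and 4.21% (1.16% to 10.4%) of VRK1 peaks, 12.9% (3.63% to 29.8%) and 9.68% (2.04% to 25.8%) of siControl pT120 peaks and 4.80% (1.78% to 10.2%) of siControl ubK119 peaks, in the same order. The pooled siControl pT120 shares come wholly from the proximal window. In the rest 14 of 99 siControl pT120 peaks (14.1%, 7.95% to 22.6%) met siControl ubK119.

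Within the windows, all 3 regions called with every antibody were in the proximal one, and they carry many of its reads. Such regions also occurred in the rest of chromosome 19, where 6 regions were called in all 7 libraries. Those at chr19:23005278-23005671 and chr19:24183606-24184338 lie in the stretch near the centromere that is left out of the rest. At chr19:23005278-23005671 all 7 lists had a peak. Listed with pT120 first (siControl, then siVRK1), followed by VRK1 and the ubK119 pair, the antibody libraries held 33, 67, 35, 49 and 25 reads there, and the inputs held 29 and 41. Scaled to the total reads of each library (RPM, the unit in which heights are also deposited) these were 1.60, 1.86, 1.09, 1.21, 0.834, 1.08 and 1.23. The inputs lie inside the range of the antibodies there.

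The region at chr19:24183606-24184338, near the end of the window towards the centromere, was called in 6 lists. Its reads were 56, 60, 115, 93 and 71 with the antibodies in the order above, 12 in the siControl input and 63 in the siVRK1 input. In RPM these were 2.71, 1.67, 3.59, 2.30 and 2.37 with the antibodies and 0.446 and 1.89 in the inputs. The siControl input was the low library, and the siVRK1 input was 4.25 times higher (2.27 to 8.65). Over their own input the siControl libraries reached 6.07 (pT120, 3.21 to 12.4), 8.04 (VRK1, 4.43 to 16.0) and 5.15 (ubK119, 2.81 to 10.3), whereas siVRK1 pT120 was at 0.879 (0.607 to 1.27) and siVRK1 ubK119 at 1.25 (0.878 to 1.78).

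The region at chr19:19827277-19827537 was called with every antibody and in neither input. It held 12, 16, 20, 21 and 23 reads with the antibodies, against 7 and 3 in the inputs. The ratio to the own input was 2.23 (0.809 to 6.68) for siControl pT120, 4.92 (1.41 to 26.4) for siVRK1 pT120, 2.40 (0.974 to 6.71) for VRK1, 1.99 (0.817 to 5.56) for siControl ubK119 and 8.51 (2.57 to 44.3) for siVRK1 ubK119. Without these 3 regions neither ubK119 list had a peak in the proximal window. The exact 95% interval of that count of 0 reached up to 0.0739 times the density of the rest under siControl and 0.104 times under siVRK1. Regions of this kind were not taken out of the rest. Without the shared regions 2 siControl pT120 peaks, 12 siVRK1 pT120 peaks, 7 VRK1 peaks and 6 and 14 input peaks were left in the proximal window.

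**Figure D3:**
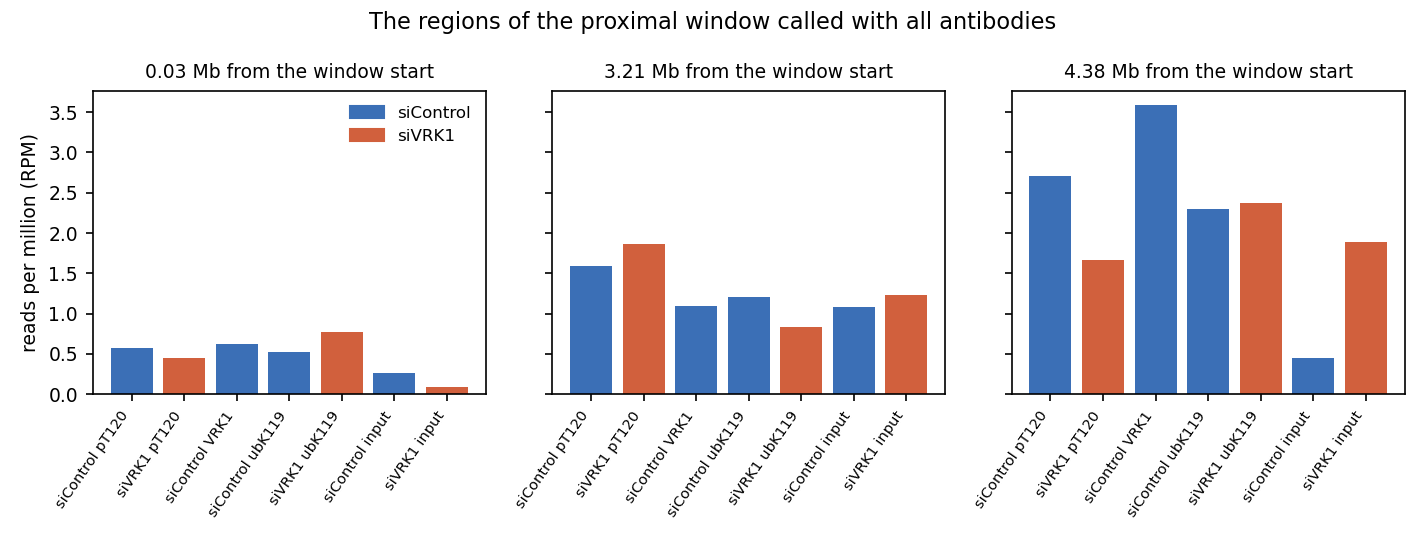
RPM of the 7 libraries (siControl blue, siVRK1 orange, 1 library per bar and no error bars) in the 3 proximal regions called with all antibodies, titled by their distance from the start of the window. In the right panel the siControl input, at 0.446 RPM, is lower than each of the other 6 libraries.

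Reads were compared with the input of the same siRNA in regions called in the other input, so that neither library had chosen them. In these regions the distal ratio of 4 of the 5 antibody libraries was within counting error of that in the rest of the chromosome. The siControl pT120 ratio was 1.08 (0.960 to 1.21) in the distal window and 1.08 (1.03 to 1.14) in the rest. VRK1 was at 1.25 (1.13 to 1.39) and 1.32 (1.26 to 1.39). siControl ubK119 was below its input in both, at 0.677 (0.607 to 0.757) and 0.742 (0.705 to 0.781), and siVRK1 ubK119 was at 1.03 (0.893 to 1.18) and 1.01 (0.942 to 1.08). siVRK1 pT120 was lowest, at 0.366 (0.305 to 0.439) and 0.465 (0.427 to 0.505), and here the distal value was 0.788 times that of the rest (0.643 to 0.963).

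The proximal ratios were higher for 4 of the 5 antibody libraries. They were 1.76 (1.38 to 2.26) for siControl pT120, 0.971 (0.702 to 1.34) for siVRK1 pT120, 1.89 (1.51 to 2.36) for VRK1 and 1.23 (0.982 to 1.56) for siControl ubK119, which is 1.63, 2.09, 1.42 and 1.66 times the value in the rest. For siVRK1 ubK119 the ratio was 0.922 (0.651 to 1.30). The shared regions held 56.9%, 82.7%, 55.5% and 64.8% of the antibody reads of the first 4 libraries in this comparison. Without them the ratios were 1.21 (0.860 to 1.71), 0.359 (0.179 to 0.682), 1.34 (0.992 to 1.81) and 0.692 (0.496 to 0.965), each within counting error of the rest, and siVRK1 ubK119 was at 1.20 (0.744 to 1.95). Leaving out these regions was chosen after their values were seen, and regions of this kind were not taken out of the rest. Over both windows with all regions the ratios were 1.19 (1.07 to 1.32), 0.459 (0.393 to 0.535), 1.35 (1.23 to 1.48), 0.764 (0.692 to 0.843) and 1.01 (0.888 to 1.15) for siControl pT120, siVRK1 pT120, VRK1, siControl ubK119 and siVRK1 ubK119. The position of siControl ubK119 against its input depended on the regions read. In distal regions of other antibody lists it was at 0.656 (0.515 to 0.835, siControl pT120), 0.786 (0.696 to 0.889, VRK1), 1.0001 (0.851 to 1.18, siVRK1 ubK119) and 1.20 (0.9998 to 1.45, siVRK1 pT120), and the same lists in the rest gave 0.972 (0.868 to 1.09), 0.828 (0.785 to 0.874), 1.27 (1.20 to 1.34) and 1.23 (1.12 to 1.35). In the siControl pT120 and siVRK1 ubK119 regions the distal value was below that of the rest, at 0.675 (0.516 to 0.882) and 0.789 (0.665 to 0.938) of it. Over the merged regions of all 7 lists in both windows, its own peaks included, it was 1.14 (1.08 to 1.19).

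**Figure D4:**
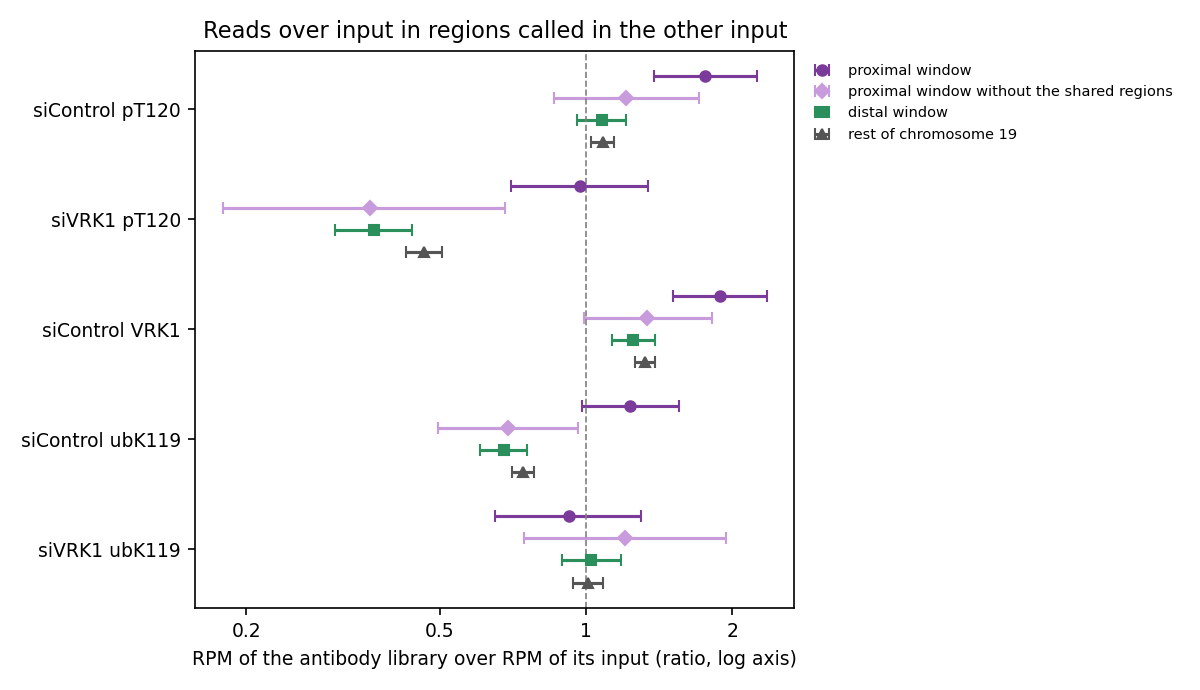
RPM of each antibody library over that of the input of the same siRNA (log axis, exact 95% intervals of counting error) in regions called in the other input, for the proximal window with and without the 3 shared regions, the distal window and the rest of chromosome 19. The distal values lie close to those of the rest, and the proximal values move towards them once the shared regions are left out, except for siVRK1 ubK119. That library goes from 0.922 to 1.20, against 1.01 in the rest.

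The siVRK1 and siControl libraries were compared in regions called with the VRK1 antibody, a list that neither library of the pair had set. In the 85 distal VRK1 regions pT120 was lower in the siVRK1 library, with 22.2 RPM under siControl and 7.88 under siVRK1, a ratio of 0.354 (0.305 to 0.412). In the rest of the chromosome the ratio was 0.406 (0.381 to 0.433), and the distal value divided by it was 0.872 (0.740 to 1.03). ubK119 was higher in the siVRK1 library, with 14.3 and 27.8 RPM, a ratio of 1.95 (1.75 to 2.17) against 1.99 (1.90 to 2.09) in the rest. The input also differed in these regions, by 1.27 (1.13 to 1.43) against 1.35 (1.28 to 1.42). In these VRK1 regions the distal difference between the siVRK1 and siControl libraries was thus within counting error of that in the rest. In regions of some other lists it was not, as given below.

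The proximal window did not. Its 10 VRK1 regions had a pT120 ratio of 0.794 (0.624 to 1.01), which is 1.95 times that of the rest (1.52 to 2.51), and a ubK119 ratio of 1.07 (0.851 to 1.34), which is 0.536 times that of the rest (0.425 to 0.676). The input ratio there was 1.75 (1.32 to 2.35). The shared regions held 78.3% of the siVRK1 pT120 reads and 70.9% of the siVRK1 ubK119 reads. Without them the ubK119 ratio was 1.68 (1.03 to 2.74), 0.841 times that of the rest (0.517 to 1.38). Regions of this kind were again not taken out of the rest. The pT120 ratio stayed at 0.795 (0.467 to 1.37), 1.96 times that of the rest (1.14 to 3.39), but rested on 36 and 26 reads in 7 regions. The windows combined gave a pT120 ratio of 0.445 (0.393 to 0.505) and a ubK119 ratio of 1.74 (1.58 to 1.92).

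**Figure D5:**
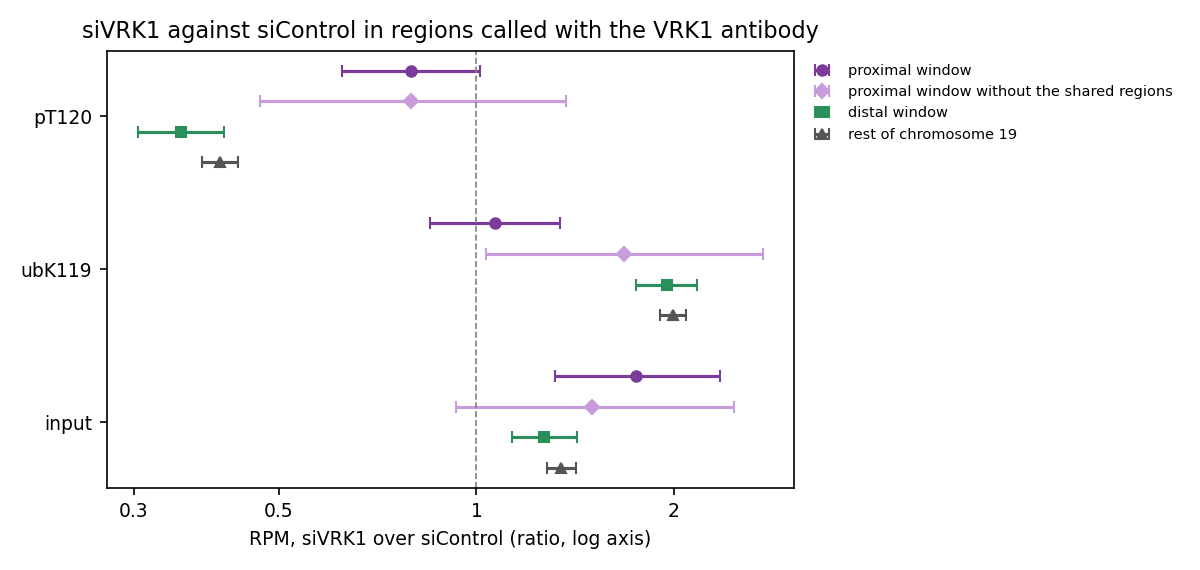
RPM under siVRK1 over RPM under siControl (log axis, exact 95% intervals of counting error) for pT120, ubK119 and input in regions called with the VRK1 antibody, by window. Distal values lie on those of the rest of chromosome 19, at 0.354 against 0.406 for pT120 and 1.95 against 1.99 for ubK119, and the proximal values lie nearer to 1 for both marks.

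The direction for ubK119 depended on the regions read. In distal regions called with siControl pT120 the siVRK1 to siControl ratio of ubK119 was 2.37 (1.92 to 2.94), and in those of the inputs it was 1.75 (1.51 to 2.04) and 2.05 (1.86 to 2.27). The rest gave 1.76 (1.60 to 1.93) over the siControl pT120 list, and the distal value was 1.35 times that (1.07 to 1.71). Over the input lists the distal value was 1.03 (0.871 to 1.23) and 1.08 (0.966 to 1.20) times that of the rest. In distal regions called with siVRK1 pT120 the ubK119 ratio was 0.687 (0.566 to 0.831), and in the rest of the chromosome 0.891 (0.816 to 0.973) over that list. The distal value was 0.771 times that of the rest (0.623 to 0.952). Over the same list the ubK119 ratio was lowest in the second section of the distal window, at 0.596 (0.465 to 0.759), with 0.886 (0.641 to 1.22) in the first. For pT120 the distal ratio was below 1 in the VRK1, ubK119 and input lists. It ran from 0.341 (0.274 to 0.422) in siVRK1 ubK119 regions to 0.809 (0.717 to 0.914) in siControl ubK119 regions. In the rest these were at 0.392 (0.365 to 0.421) and 0.724 (0.681 to 0.770). No such ratio was taken over the pT120 lists, each set by 1 library of the pair. Distal siVRK1 pT120 regions had 5.99 RPM of pT120 under siControl and 17.4 under siVRK1. Distal siControl pT120 regions had 15.4 and 2.14, and both directions follow from that choice. In siControl input regions the distal pT120 ratio was 0.778 times that of the rest (0.620 to 0.976). In the siVRK1 input list and both ubK119 lists that interval held 1.

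Region by region, few VRK1 regions in the windows had the 20 reads over both libraries that a 2-fold call needed. For pT120, 1 of 4 was at least 2-fold lower under siVRK1, against 31.3% over all VRK1 regions of the genome, and 0 of 4 was 2-fold higher (2.32%). For ubK119, 18 of 31 were at least 2-fold higher (58.1%, 39.1% to 75.5%), against 33% over the genome and 57 of 113 (50.4%, 40.9% to 60.0%) in the rest of chromosome 19. All 18 lay in the distal window, where 28 could be called. The single region of 31 that was 2-fold lower (2.4% over the genome) was proximal. In the inputs 5 of 17 were 2-fold higher (9.5%) and 0 of 17 lower (2.88%). The share for ubK119 is above that of the genome and near that of the rest of the chromosome.

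The highest distal peaks outside input peaks show how thin single regions are. The highest siVRK1 ubK119 peak, at chr19:54822673-54823076 with a height of 28, held 35 reads of siVRK1 ubK119 and 13 of siControl ubK119, with 17 and 5 in their inputs. The ubK119 ratio of siVRK1 to siControl was 3.63 (1.87 to 7.48), and over its own input siVRK1 ubK119 was at 2.28 (1.25 to 4.35). pT120 had 8 reads under siControl and 1 under siVRK1 there. This peak lies in the densest siControl ubK119 step, but siControl ubK119 was not called at it.

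Further siVRK1 ubK119 peaks were at chr19:54723142-54723387, with 27 reads against 6 under siControl (6.07, 2.46 to 18.0), and at chr19:54671854-54672158, with 26 against 4 (8.77, 3.04 to 34.6). The longest siVRK1 ubK119 peak outside input peaks, of 406 bp at chr19:54760147-54760553, held 35 reads against 16 (2.95, 1.59 to 5.71). All of these lie in the second section of the distal window. The siControl ubK119 peaks had the opposite difference. At chr19:54831628-54832019 the reads were 28 under siControl and 9 under siVRK1 (0.434, 0.180 to 0.945), and at chr19:54844526-54844828 they were 27 and 8 (0.400, 0.157 to 0.905). The longest siControl ubK119 peak outside input peaks, of 560 bp at chr19:56276409-56276969, held 36 and 9 (0.337, 0.143 to 0.714). Each of these peaks was picked in the library in which it is high, so the direction of its ratio follows from that choice.

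The highest distal pT120 peaks outside input peaks were also each called under 1 siRNA. At chr19:56188450-56188714 siControl pT120 had 17 reads and siVRK1 pT120 3, with 10 and 11 in the inputs, and at chr19:55315200-55315466 the reads were 15 and 5, with 5 and 9 in the inputs. At chr19:54690468-54690730 they were 14 and 6. At chr19:56489002-56489293 siVRK1 pT120 had 16 reads and siControl pT120 1, with inputs of 1 and 3 under the same siRNAs. At chr19:52494432-52494668, in the first section, the reads were 13 and 2. The VRK1 peaks at chr19:54382187-54382405 and chr19:55932738-55933058 held 15 and 20 VRK1 reads, with 1 and 6 in the siControl input. Each of these pT120 and VRK1 peaks was also picked as high in 1 library and outside input peaks. The direction of its differences from the other libraries follows from that choice. No peak in either window exceeded 100 reads in an input.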

How the data were processed

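Tools named in the submitters' processing notes, with no role stated, are Bowtie 0.12.8, CASAVA 1.8.2 and Partek, with hg19 as the build. Libraries were made with 20 PCR cycles and read for 36 sequencing cycles, per the labels' protocols. Not given in the sources used here: peak settings, the treatment of duplicates, any use of the input as control and whether positions count from 0 or 1. Each deposited list holds the peaks of 1 library. Per the file headers, a peak has a height (signal: the highest number of extended reads), the same height as RPM, a p-value of the caller, which was not used, and, for each of the 7 libraries, a count of the reads within its bounds. The percent of a peak covered by peaks of other libraries was also deposited, and the overlaps computed here differed from it in 0 of 3078 comparisons.

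Height divided by the deposited RPM gave the library totals, and counts were divided by them. A level of 3 reads was 0.0742 to 0.145 RPM. Chromosome 19 was taken from the first to the last peak (chr19:89237-59097621). Density ratios and RPM ratios have exact conditional binomial 95% intervals, ratios of ratios conditional odds ratio intervals, and shares Clopper-Pearson intervals. Reads of short fragments after PCR are not independent molecules, so these intervals cover counting error only. Regions with more than 100 reads in an input were left out of RPM ratios. Overlap meant 1 bp. Groups came from the sample labels, and with 1 library per condition no significance test was run. The calculation of the ratios and their intervals was tested on simulated data.

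Named regions are the 3 highest peaks of each antibody library outside input peaks, the regions called with the most antibodies (at most 6), the longest ubK119 peak of each siRNA outside input peaks and the highest peak of each input. A region is given as the longest peak of any antibody library there. The windows, lists and comparisons were chosen with earlier results of these data known. The section boundary in the distal window and the values without the shared regions were added after the data were seen. The shared regions were left out of the windows only. Peaks were not assigned to genes and their sequences are not analysed here, as no hg19 genome was used. Python 3.11.15, numpy 2.4.6, pandas 2.3.3, scipy 1.17.1 and matplotlib 3.10.9 were used.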

Additional observations from a re-analysis of the deposited data

How the results depend on the processing

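Of 185 alternatives over 38 results, 115 left the value within the interval of the original and 70 did not. Many of the latter come from reading 1 window instead of both. Over the proximal window only, the density ratios were 0.479 (siControl pT120), 0.942 (siVRK1 pT120), 0.218 (VRK1), 0.0599 (siControl ubK119), 0.0839 (siVRK1 ubK119), 0.407 (siControl input) and 0.328 (siVRK1 input), and outside input peaks 0.223, 0.763, 0.184, 0.0210 and 0.0312 for the antibodies. Over the distal window only, they were 2.44, 2.71, 1.82, 2.38, 1.20, 2.33 and 1.77, and outside input peaks 2.51, 2.93, 1.73, 2.45 and 1.04. All 7 proximal ratios were below 1 and all 7 distal ratios above it. Of the ratios over both windows whose interval left out 1, those of siVRK1 pT120 and siControl ubK119 turned in the proximal window and that of siVRK1 ubK119 in the distal window. With the rest of the long arm as comparison the siControl ubK119 ratio turned to 0.936, and to 0.952 outside input peaks, and its distal ratio was 1.81. With the proximal window ended at the stretch near the centromere it was 1.53, and 1.57 outside input peaks.

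With a height of at least 18 reads in every list the ratios over both windows were 1.56 (VRK1), 1.52 (siControl ubK119), 2.68 (siControl input) and 1.803 (siVRK1 input), and outside input peaks 1.66 for siControl ubK119 and 0 for both pT120 libraries, whose lists hold few such peaks. At that height no pT120 peak was left in the distal window (0 under both siRNAs), and the proximal siControl input ratio turned to 1.35. The proximal pT120 ratios were 2.11 and 4.06, the distal input ratios were 3.98 and 2.62, and the proximal siVRK1 ubK119 ratio stayed at 0.0839.

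Reads over input in the proximal window only were 1.76 (siControl pT120), 0.971 (siVRK1 pT120), 1.89 (VRK1) and 1.23 (siControl ubK119, turned). In the distal window only they were 0.366 (siVRK1 pT120) and 0.677 (siControl ubK119). They were 0.362 and 0.660 with the shorter proximal window, 0.554 and 1.14 (turned) over the merged regions of all 7 lists, and 0.366 and 0.679 without the regions called with all antibodies. The siVRK1 to siControl ratios moved in the same settings. For pT120 they were 0.794 (proximal), 0.354 (distal), 0.361 (shorter proximal window), 0.637 (merged regions) and 0.378 (without the shared regions). For ubK119 they were 1.07, 1.95, 1.96, 1.26 and 1.94. Outside input peaks the overlap of VRK1 with siControl pT120 was 1.35% and that of siControl ubK119 with siVRK1 ubK119 was 1.67%. Apart from settings that use fewer peaks or regions by construction, the cause was not tested. No library could be left out and no paired analysis was possible because there was 1 library per condition. Single distal regions have wide intervals, and no distal peak was higher than 28 reads.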
